A study of Rattus norvegicus with 16 samples.

Results

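Hspa8, Hspd1, Dnaja1 and Dnajb1 are heat shock chaperone genes of the cytosol and the mitochondrion, and their transcripts were followed here in NG108 cells given the antimalarial drug mefloquine. Every probe set whose platform annotation names exactly 1 of these 4 genes was taken, which gave 7 probe sets among the 972 for genes, and 4 genes among the 549 that have a probe set of their own. A probe set is a group of short probes for a transcript, and its intensity is the brightness the array reports for it. The genes were chosen by measured values, their differences between drug and control on these same arrays, which are therefore given as a description, with no p-value of their own. The control group comprised 8 samples in 0.25% dimethyl sulfoxide (DMSO), and the other group comprised 8 in 4400 ng/ml mefloquine, all for 2 hours. The labels do not state whether the mefloquine cultures also received DMSO, or whether the 8 samples of a group were grown separately, so the spread between them may be technical. NG108 is known as a hybrid line of mouse neuroblastoma and rat glioma cells, while the labels call it rat, and the array carries rat probes. How far mouse transcripts were measured was not tested. None of 20 neuronal marker genes, and 2 of 12 glial ones (Vim at 11649 to 21222 intensity units and Clu at 819 to 2302), had a probe set of its own, so the cell type could not be checked.

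Chaperones bind unfolded proteins and help them to fold or to reach their compartment. Hspa8 encodes Hsc70, the constitutive cytosolic Hsp70, which grips and releases its clients as it hydrolyses ATP. Dnaja1 and Dnajb1 encode J-domain proteins of the Hsp40 family, which bring clients to Hsp70 and stimulate that hydrolysis. Hspd1 encodes Hsp60, the barrel-shaped chaperonin of the mitochondrial matrix. In stressed cells heat shock factor Hsf1 forms trimers and binds heat shock elements, arrays of the unit GAA in alternating orientation. Dnajb1 is a commonly used readout of that response, whereas Hspa8 is abundant without stress.

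The promoter sequences of these genes hold letter matches to short runs of that alternating unit. The stretches with these matches are printed because the choice of genes did not use them. All 4 were found in the RefSeq promoter table (rat build GRCr8), which covers 250 bases before and 50 bases after each transcription start. Matches to GAANNTTC and TTCNNGAA are in capitals. Both motifs equal their own reverse complement, so 1 search covers both strands, and neighbouring matches can overlap. Each stretch reads 5′ to 3′ along the gene.
Hspa8, distal, chr8:50080277-50080336, plus strand: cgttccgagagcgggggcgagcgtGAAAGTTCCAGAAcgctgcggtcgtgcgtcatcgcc
Hspa8, proximal, chr8:50080435-50080494, plus strand: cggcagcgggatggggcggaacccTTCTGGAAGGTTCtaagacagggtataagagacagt
Hspd1, chr9:64084228-64084287, minus strand: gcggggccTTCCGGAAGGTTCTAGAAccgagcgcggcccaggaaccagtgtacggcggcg
Dnaja1, upstream, chr5:60638197-60638256, plus strand: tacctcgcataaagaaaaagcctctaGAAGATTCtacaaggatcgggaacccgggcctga
Dnaja1, after the start, chr5:60638404-60638433, plus strand: ggccgggcgGAACTTTCCAGAAcgctcggt
Dnajb1, upstream, chr19:41431142-41431201, minus strand: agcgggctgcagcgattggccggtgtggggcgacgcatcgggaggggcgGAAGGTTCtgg
Dnajb1, after the start, chr19:41431106-41431135, minus strand: ggcgggatctgGAAGCTTCcgccggacggg

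The longest run lay in Hspd1, with 4 alternating units over 18 bases that begin at position -242 from the start. Hspa8 held 2 runs of 3 units, beginning at positions -213 and -55. Dnaja1 held a run of 2 units at -181 and a run of 3 units just after the start, at position 10. Dnajb1 held 2 runs of 2 units, at -11 and at position 18. GAANNTTC was present in all 4 promoters, and in 8.59% of the 33469 promoters of the same length. TTCNNGAA was present in Hspa8, Hspd1 and Dnaja1, against 8.77% of all promoters. The longer forms GAANNTTCNNGAA or TTCNNGAANNTTC, which contain both shorter motifs and are each other's reverse complement, were present in the same 3 genes and in 0.798% of all promoters. The motifs are not particular to the 4 genes. Of 10 other tested heat shock and chaperone genes with an entry in the table, GAANNTTC was present in 5 (Fkbp4, Hspa9, Hspb1, Hspb6 and Hsph1), TTCNNGAA in 4 and a longer form in 1, Hsph1. These are matches of letters, and no binding was measured.

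The arrays had median intensities of 461 to 665 for gene probe sets. DMSO control 3 stood apart from the other 15. The ratio of 3′ over 5′ signal, in which a high value is a known sign of shortened RNA, was 21.3 on that array for beta-actin against 1.31 to 2.67 on the others, and 4.62 for GAPDH against 1.02 to 1.48. It correlated with other arrays at a median of 0.855, while the rest reached 0.901 to 0.945, with mefloquine 1 and 2 at the low end (0.901 and 0.912). The difference of each tested chaperone gene, by its brightest probe set or, for the 4 genes, by every probe set, is therefore given with and without DMSO control 3, and for some also without mefloquine 1 and 2.

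Hspa8 was well above the floor on every array and did not separate the groups. The brighter probe set, rc_AI234604_s_at, ranged from 26997 through a median of 56703 to 70851 on the DMSO arrays, and from 47405 through 61606 to 75753 on the mefloquine arrays. The lowest DMSO value was that of DMSO control 3, and the highest mefloquine values were those of mefloquine 1 and 2 (75753 and 74616). The next lowest DMSO value was 49025, and the groups overlapped over most of their range. On the log2 scale mefloquine minus DMSO was 0.21 ± 0.18 (SE, n = 8 each, limma), with a 95% interval from -0.16 to 0.58. Without DMSO control 3 the difference shrank to 0.07 ± 0.12 (SE, n = 7 and 8), and without mefloquine 1 and 2 as well it was -0.03 ± 0.12 (n = 7 and 6). In cultures, a lower value could not tell fewer cells that express a gene from less RNA per cell.

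The other Hspa8 probe set, M11942_s_at, gave a different picture of the same array. It ranged from 38090 through 42253 to 53462 in DMSO cells and from 36984 through 43627 to 52056 in mefloquine cells, which overlapped almost fully. Here DMSO control 3 was the highest DMSO array, where by rc_AI234604_s_at it was the lowest. Its log2 distance from the mean of the other 7 DMSO arrays was 0.33 by M11942_s_at and -1.12 by rc_AI234604_s_at, a ratio of 1.26 against 0.462. The group difference was 0.02 ± 0.11 (log2, SE, n = 8 each), and 0.06 ± 0.11 without DMSO control 3. The suffix _s_at marks probes that can match several transcripts, and the RefSeq table names 33 pseudogenes of Hspa8, so signal from copies cannot be told apart from that of the gene.

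**Figure D1:**
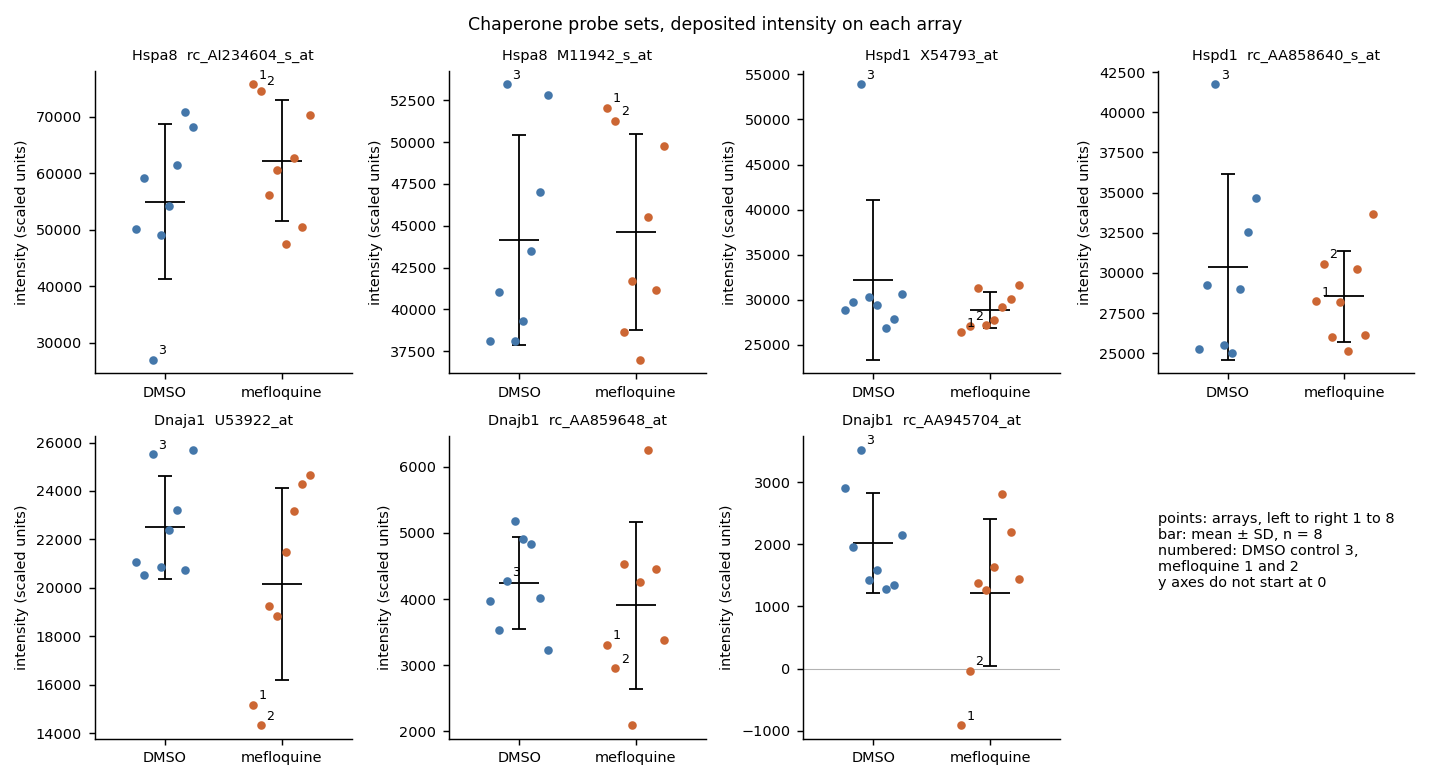
Deposited intensity (y axis, scaled units, not starting at 0) of the 7 chaperone probe sets on the 8 DMSO and 8 mefloquine arrays. Points are arrays in the order of their numbers, bars are mean ± SD, and DMSO control 3 and mefloquine 1 and 2 are numbered; DMSO control 3 is lowest for rc_AI234604_s_at and highest for X54793_at.

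Hspd1, the mitochondrial chaperonin, was at a similar level in both groups once DMSO control 3 was set aside. By X54793_at the DMSO arrays ranged from 26850 through 29592 to 53890 and the mefloquine arrays from 26399 through 28510 to 31598. The value of 53890 was DMSO control 3, while the other 7 DMSO arrays lay between 26850 and 30653, inside the mefloquine range. The coefficient of variation of these 7 was 4.67%, against 27.5% with DMSO control 3 and 6.95% for mefloquine. Mefloquine minus DMSO was -0.13 ± 0.13 (log2, SE, n = 8 each) and -0.01 ± 0.07 without that array, with a 95% interval from -0.17 to 0.14.

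The second Hspd1 probe set, rc_AA858640_s_at, had DMSO values from 25026 through 29119 to 41736 and mefloquine values from 25167 through 28217 to 33698. DMSO control 3 was again the highest array, 1.46 times the geometric mean of the other DMSO arrays, where by X54793_at it was 1.85 times. The groups overlapped, with a difference of -0.08 ± 0.12 (log2, SE, n = 8 each) and of -0.01 ± 0.10 without DMSO control 3. The RefSeq table names 20 pseudogenes and 2 further gene copies of Hspd1, whose signal cannot be told apart here.

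Dnaja1, the J-domain partner of Hsp70 that also aids import into mitochondria, had its lowest values on 2 mefloquine arrays. Its probe set, U53922_at, ranged from 20531 through 21744 to 25705 in DMSO cells and from 14339 through 20349 to 24666 in mefloquine cells. Mefloquine 1 and 2 were at 15169 and 14339, mefloquine 3 and 4 at 19233 and 18836, and the other 4 between 21464 and 24666, within the DMSO range. The difference was -0.18 ± 0.13 (log2, SE, n = 8 each) and hardly moved without DMSO control 3 (-0.15 ± 0.13). Without mefloquine 1 and 2 as well it was -0.01 ± 0.09 (n = 7 and 6).

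Dnajb1, the stress-responsive J-domain gene, spread widely within each group by both of its probe sets. By rc_AA859648_at the DMSO arrays ranged from 3235 through 4142 to 5174 and the mefloquine arrays from 2096 on mefloquine 4 through 3817 to 6259 on mefloquine 6, so the mefloquine range enclosed the DMSO range. The difference was -0.17 ± 0.19 (log2, SE, n = 8 each) and -0.17 ± 0.19 without DMSO control 3 (n = 7 and 8). It was -0.08 ± 0.21 without mefloquine 1 and 2 too. DMSO control 3, at 4270, lay inside the range of the other DMSO arrays.

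By rc_AA945704_at, Dnajb1 ranged from 1274 through 1772 to 3522 in DMSO cells and from -909 through 1411 to 2809 in mefloquine cells. Mefloquine 1 and 2 held -909 and -34.5, and values this low were set to the floor of 426.5. The other 6 mefloquine arrays lay between 1271 and 2809, and the highest DMSO value was that of DMSO control 3. The difference was -0.65 ± 0.37 (log2, SE, n = 8 each), with a 95% interval from -1.43 to 0.14, the widest of the 7. It was -0.52 ± 0.38 without DMSO control 3 and -0.02 ± 0.23 without mefloquine 1 and 2 too. Its size thus rests on 2 arrays that read below 0, where no level was measured and the floor sets the value.

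Read over the gene set, 0 of the 7 probe sets passed limma's test across all features at a Benjamini-Hochberg adjusted p under 0.05, where 1.28% of all 545 tested probe sets did. Without DMSO control 3 the count was again 0 of 7, against 1.1% of all, and without mefloquine 1 and 2 too it was 0 of 7 against 0.917%. None of the 7 separated the groups without overlap, where 0.55% of all tested probe sets did. All 7 had passed the filter on dim values. As their difference was known when they were picked, nothing is read from these counts. The median difference over the 7 was -0.13 on all arrays and -0.01 without DMSO control 3, beside -0.01 and -0.05 over all tested probe sets. For 6 of the 7, all but rc_AA945704_at, the 95% interval lay within a 2-fold change in either direction, as it did for 87.7% of all tested probe sets. Nothing is read from that count either, as the genes were picked by these differences.

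**Figure D2:**
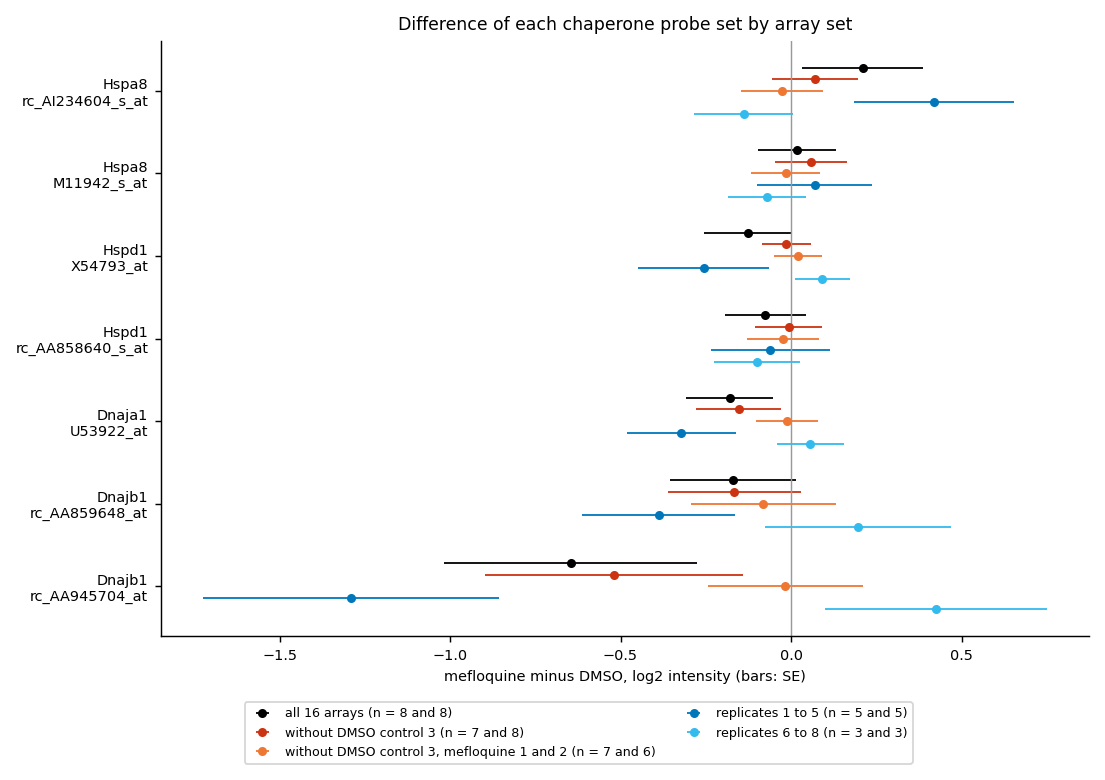
Mefloquine minus DMSO on the log2 scale (x axis, points, bars are SE) for each chaperone probe set (y axis) in 5 sets of arrays. Without DMSO control 3 and mefloquine 1 and 2 all 7 points lie between -0.08 and 0.02, while replicates 1 to 5 and 6 to 8 pull rc_AA945704_at to -1.29 and 0.425.

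Arrays numbered 1 to 5 and 6 to 8 were also read apart, ranges that earlier work on these data had noticed and that no label describes. Of the 7 probe sets, 6 differed in sign between the ranges, and 1, rc_AA858640_s_at of Hspd1, had the same sign (-0.06 and -0.10). Some of these differences were smaller than their SE, such as 0.07 ± 0.17 and -0.07 ± 0.11 for M11942_s_at of Hspa8. The share over all tested probe sets was not computed, so nothing is read from the count of signs. The largest differences in replicates 1 to 5 were, on the log2 scale, 0.42 ± 0.23 for Hspa8 by rc_AI234604_s_at, -0.32 ± 0.16 for Dnaja1, -0.39 ± 0.22 for Dnajb1 by rc_AA859648_at and -1.29 ± 0.43 for Dnajb1 by rc_AA945704_at (SE, n = 5 each). In replicates 6 to 8 the same probe sets gave -0.14 ± 0.14, 0.06 ± 0.10, 0.20 ± 0.27 and 0.425 ± 0.33 (SE, n = 3 each). DMSO control 3 and mefloquine 1 and 2 all belong to the lower range, and whether the drug's effect differs between the ranges was not tested.

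Probe sets of the same gene were next compared over the arrays, a relation that the choice of genes did not use. For Hspa8 the correlation over all 16 arrays was low (Pearson r = 0.20, permutation p = 0.483; Spearman rho = 0.594, permutation p = 0.0167). Without DMSO control 3 and mefloquine 1, the 2 arrays farthest from the median of rc_AI234604_s_at, r was 0.918, and it was 0.931 without DMSO control 3 alone. For Hspd1 the reverse held, with r = 0.644 (permutation p = 0.0265) and rho = 0.25 (permutation p = 0.349) over 16 arrays and r = 0.0506 without the 2 farthest arrays. That relation rests on DMSO control 3, since r was 0.0555 without it. For Dnajb1, r was 0.421 (permutation p = 0.107) and rho 0.339 (permutation p = 0.198), and r was 0.418 without mefloquine 4 and 6. Adjusted over the 10 relations computed, these p-values were 0.537 and 0.0555 for Hspa8, 0.0883 and 0.436 for Hspd1, and 0.179 and 0.331 for Dnajb1, by r and by rho respectively, so none passed.

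**Figure D3:**
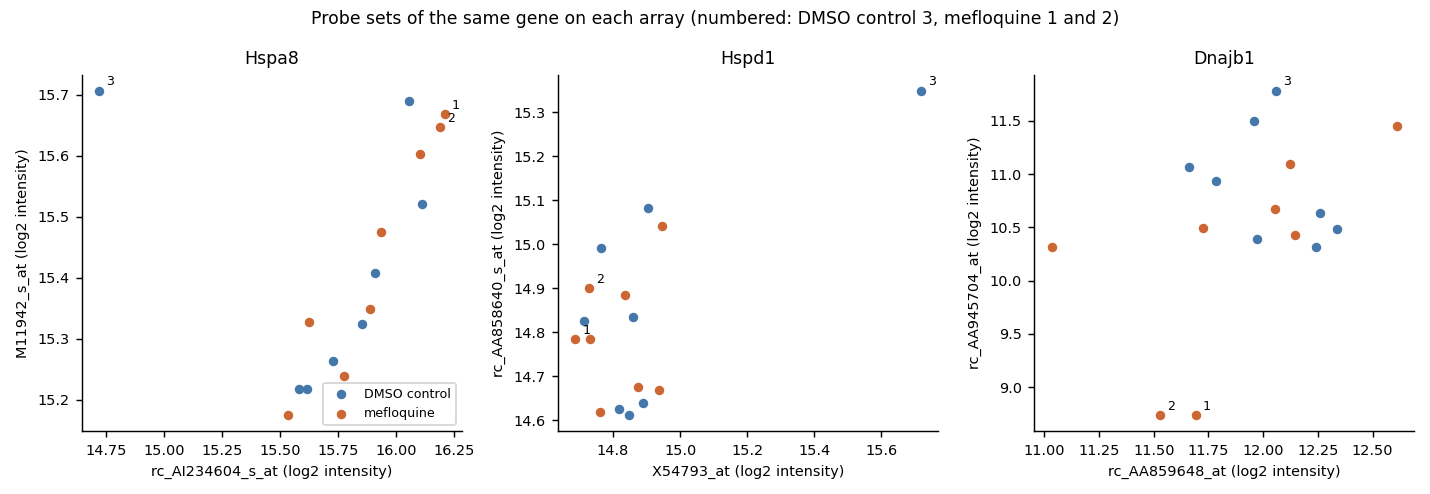
Log2 intensity of 1 probe set (x axis) against the other (y axis) of Hspa8, Hspd1 and Dnajb1 on the 16 arrays, with DMSO control 3 and mefloquine 1 and 2 numbered. For Hspa8 15 arrays lie along a line and DMSO control 3 lies far to the left of it; for Hspd1 the 15 form a cloud and DMSO control 3 lies beyond it in both directions.

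Hspa8 by M11942_s_at moved with the bacterial spike-ins, control transcripts that are added to each sample and do not come from the cells. By r, rc_AI234604_s_at did so only without DMSO control 3. The spike-in values carry the authors' chip scaling like all others, so their level need not be independent of the signal from the cells. Over the 16 arrays M11942_s_at correlated with the mean log2 spike-in level at r = 0.894 and rho = 0.921 (permutation p = 1e-05 for each, the smallest that the permutations can give; adjusted p = 0.0001). Without the 2 arrays farthest in spike-in level, DMSO control 3 and mefloquine 1, r was 0.875. The brighter Hspa8 probe set had r = -0.02 over all arrays (permutation p = 0.93, adjusted p = 0.93) and rho = 0.568 (permutation p = 0.0241, adjusted p = 0.056). It had r = 0.841 without these 2 arrays and 0.863 without DMSO control 3 alone. Hspd1 by rc_AA858640_s_at behaved like M11942_s_at, with r = 0.761 (permutation p = 0.00086, adjusted p = 0.0043), rho = 0.841 (permutation p = 0.0001, adjusted p = 0.0005) and r = 0.778 without the 2 arrays.

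The other chaperone probe sets did not follow the spike-ins upward. Hspd1 by X54793_at had r = 0.428 (permutation p = 0.0977, adjusted p = 0.179), which turned to -0.19 without the 2 arrays, so the relation rests on them, and rho = -0.04 (permutation p = 0.882, adjusted p = 0.961). Dnaja1 had r = -0.24 (permutation p = 0.38, adjusted p = 0.475) and rho = 0.0147 (permutation p = 0.961, adjusted p = 0.961), and -0.32 without the 2 arrays. Dnajb1 had r = -0.46 (permutation p = 0.076, adjusted p = 0.179) and rho = -0.55 (permutation p = 0.028, adjusted p = 0.056) by rc_AA859648_at. By rc_AA945704_at it had r = -0.34 (permutation p = 0.195, adjusted p = 0.279) and rho = -0.28 (permutation p = 0.289, adjusted p = 0.413). Without the 2 arrays the Dnajb1 values were -0.64 and -0.59. The 3 arrays with the strongest spike-ins were DMSO control 3 (15.4), mefloquine 1 (15.1) and mefloquine 2 (14.9, all log2), the same 3 that stood apart in their correlations. The part of the spike-in level in the chaperone values was not tested beyond these relations.

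**Figure D4:**
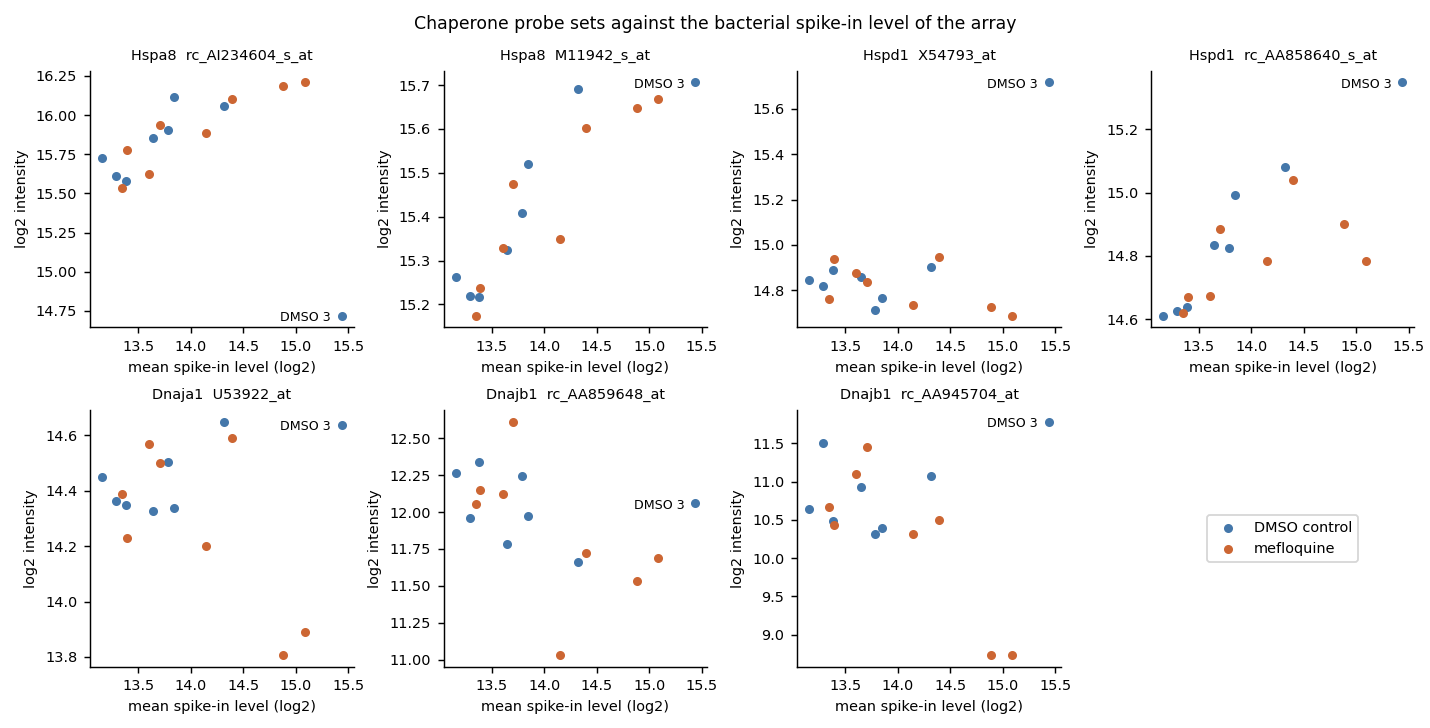
Log2 intensity of each chaperone probe set (y axis) against the mean log2 level of the bacterial spike-ins (x axis) on the 16 arrays, coloured by group. Both Hspa8 probe sets and rc_AA858640_s_at are higher where the spike-in level is higher, apart from DMSO control 3 for rc_AI234604_s_at.

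Genes with the most similar pattern were found among 338 other genes by the correlation of log2 values, centred within each group, over the 15 arrays without DMSO control 3. The likenesses belong to rc_AI234604_s_at of Hspa8, X54793_at of Hspd1, U53922_at of Dnaja1 and rc_AA859648_at of Dnajb1. They were not computed for the other probe sets, which for Hspd1 barely correlated with X54793_at on these 15 arrays (r = 0.0555). As the highest of many, the values carry no p. For Hspa8 these were Gapdh (r = 0.98), a glycolytic enzyme, Cox8a (0.966), a subunit of cytochrome c oxidase, and Hsp90ab1 (0.962), a cytosolic chaperone that works with Hsp70. With DMSO control 3 included they were 0.646, 0.836 and -0.01. For Hspd1 they were Hadha (0.801), Ndufs4 (0.71) and Cox7a2 (0.708), which encode a fatty acid oxidation enzyme and 2 respiratory chain subunits of the mitochondrion. Over 16 arrays these were 0.123, 0.577 and 0.476. The share of mitochondrial genes among the 338 was not computed, so no shared theme is read from these names. For Dnaja1 they were Blvra (0.946), biliverdin reductase, Apex1 (0.899), a DNA repair enzyme, and Srsf3 (0.895), a splicing factor, with 0.586, 0.904 and 0.447 over 16 arrays. For Dnajb1 they were Acot7 (0.825), Ephx1 (0.766) and Bax (0.74), with 0.485, 0.534 and 0.676 over 16 arrays. All genes were read on the same arrays, and the part of spike-in and quality differences in these likenesses was not tested. On these 15 arrays, without centring, r with the spike-in level was 0.863 for rc_AI234604_s_at and -0.39 for X54793_at. It was -0.52 for U53922_at and -0.62 for rc_AA859648_at.

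The other genes of the heat shock and chaperone system were counted in the same fit. The list held 66 genes, of which 62 are not among the 4, and 19 of these had a probe set of their own and 14 passed the filter on dim values. Hspa1b, Hspa2, Cryab, Dnaja4 and Serpinh1 did not pass it. By the brightest probe set, 0 of 14 were higher and 0 of 14 lower with mefloquine at a limma adjusted p under 0.05. Over all tested probe sets 1.28% passed. The count was again 0 of 14 without DMSO control 3, against 1.1% of all. The median difference of the 14 was 0.01, beside -0.01 over all tested probe sets. An unadjusted limma p under 0.05 was found for 1 of 14. The share over all tested probe sets at that limit was not computed, so nothing is read from this count. The gene with the small p was Fkbp4, a co-chaperone of Hsp90, at 11306 ± 3013 in DMSO cells and 14984 ± 2352 in mefloquine cells (SD, n = 8 each). Its difference was 0.44 ± 0.17 (log2, SE, limma adjusted p = 0.772), 0.32 without DMSO control 3, and 0.26 without mefloquine 1 and 2 too. Its other probe sets stood at 0.50 and -0.12, and at -0.02 and -0.11 without DMSO control 3.

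Among regulators and partners of Hsp70, the heat shock factor Hsf1 stood at 0.09 ± 0.17 (log2, SE; adjusted p = 0.982 in limma), and at 0.03 without DMSO control 3. Its other probe set was at -0.15, and at -0.10 without that array. By the first probe set Hsf1 was at -0.14 without mefloquine 1 and 2 too. The co-chaperones Stip1, which links Hsp70 to Hsp90, and St13, which stabilises the ADP-bound form of Hsp70, differed by 0.19 ± 0.18 and 0.16 ± 0.16. Without DMSO control 3 these were 0.02 and 0.05, and the other St13 probe set went from -0.28 to -0.06. Stip1 and St13 were at 0.03 and 0.09 without mefloquine 1 and 2 too. Dnaja2, a J-domain protein of the same type as Dnaja1, differed by -0.20 ± 0.14, by -0.20 without DMSO control 3 and by -0.02 without mefloquine 1 and 2 too. Its other probe sets were at 0.13 and 0.28, and at -0.03 and 0.02 without DMSO control 3.

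Among other chaperones, Hspa9, the mitochondrial Hsp70, differed by 0.25 ± 0.32 (log2, SE), and by -0.03 without DMSO control 3. It differed by 0.23 without mefloquine 1 and 2 too. The log2 distance of DMSO control 3 from the mean of the other DMSO arrays was -2.25 for this gene. The cytosolic Hsp90 gene Hsp90aa1 differed by -0.05 ± 0.10, and by -0.03 without DMSO control 3. The other Hsp90aa1 probe set was at 0.09, and at -0.12 without that array. The related gene Hsp90ab1 differed by 0.02 ± 0.23, and by 0.17 without DMSO control 3. Its other probe sets gave 0.40, -0.05 and 0.14 on all arrays, and 0.07, 0.07 and 0.06 without that array. Hsph1, an Hsp110 that exchanges the nucleotide of Hsp70, differed by 0.00 ± 0.26, and by 0.17 without DMSO control 3. By its other probe set the difference was 0.29, and -0.001 without that array. The testis-enriched Hspa1l was at 0.01 ± 0.21 and at 0.09 without that array. The small heat shock proteins Hspb1, Hspb2, Hspb6 and Cryaa were at -0.02 ± 0.14, -0.09 ± 0.16, 0.48 ± 0.50 and -0.25 ± 0.42, and without DMSO control 3 at -0.13, -0.11, 0.20 and -0.13. The other Hspb1 probe set was at -0.26, and at -0.42 without DMSO control 3. Without mefloquine 1 and 2 too, the brightest probe sets of Hsp90aa1, Hsp90ab1, Hsph1 and Hspa1l were at -0.01, -0.03, 0.10 and -0.16. Those of Hspb1, Hspb2, Hspb6 and Cryaa were then at -0.12, -0.14, 0.35 and -0.23. DMSO control 3 lay below the mean of the other DMSO arrays for 9 of the 14 genes and above it for 5, so the genes did not all lie to 1 side on that array.

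**Figure D5:**
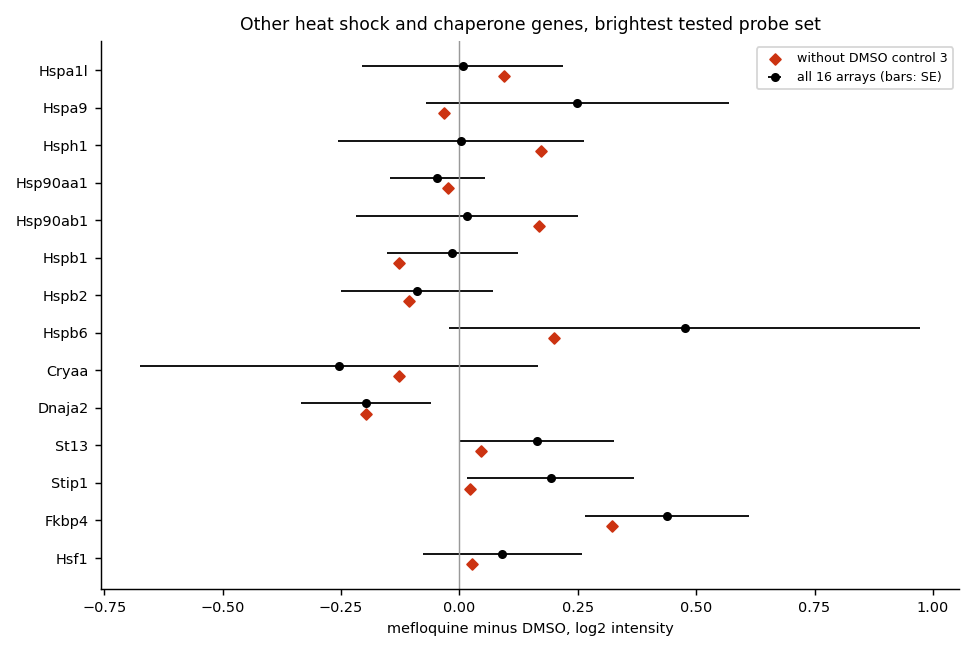
Mefloquine minus DMSO on the log2 scale (x axis) for the 14 other heat shock and chaperone genes (y axis) on all 16 arrays (circles, bars are SE) and without DMSO control 3 (diamonds). Fkbp4 lies at 0.44 and 0.32, and Hspa9 goes from 0.25 to -0.03.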

How the data were processed

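The deposited table holds linear intensities, 1 Affymetrix rat array per sample, hybridised with 10 µg of total RNA and scaled by the authors with the standard chip factors, per the labels. The scanner software is not stated there. Of the values, 26.9% were at or below 0. Values below the 25th percentile of positive values (426.5) were set to it and log2 was taken, so that fold changes of dim probe sets are understated. Probe sets above that floor on at least 8 of 16 arrays (545 of 972; 59 control probe sets were left out) were fitted with treatment as the term, using limma 3.58.1 in R 4.3.3 (lmFit, eBayes) with Benjamini-Hochberg adjustment over all tested. The limma fit was tested, without the filter, on simulated data with independent noise on each array. The other steps were not tested in this way. Groups came from the sample titles. The number of arrays limits the precision.

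Members, lists and array sets were chosen with earlier results of these data known. Named were all probe sets of the 4 genes, the tested genes of the chaperone list by their brightest probe set, and the 3 genes most alike each member. Symbols came from the platform annotation: 821 probe sets carried 1 symbol, 38 several (not named) and 113 none. Relations over arrays used 100000 permutations, two-sided, which treat all arrays as exchangeable. Alternatives were other scalings, floors, filters, a replicate block, a GAPDH ratio covariate, trend and robust eBayes, and arrays left out.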

Additional observations from a re-analysis of the deposited data

Results flagged for a closer look

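Dixon's test was applied to the extreme log2 values of every chaperone probe set, every other tested chaperone gene and both RNA quality ratios, within the 8 arrays of each group. Of 46 sets of 8 values, 8 (17.4%) stood out, and 7 of the 8 concerned DMSO control 3. Chance would give about 1 in 20 if the sets were independent. They share the same arrays, and DMSO control 3 was already known to stand apart, so nothing is read from that share. Among the 4 genes, that array was low for Hspa8 by rc_AI234604_s_at at 14.72, where the next DMSO array was at 15.58, and high for Hspd1 by X54793_at at 15.72, where the next was at 14.9. It was low for the mitochondrial Hsp70 gene Hspa9 at 9.917 (next 12.03), for the small heat shock protein gene Hspb1 at 11.49 (next 12.21) and for the co-chaperone gene Stip1 at 10.87 (next 12.05). The 3′ over 5′ ratio of beta-actin stood at 4.415 there (log2, next highest DMSO array 1.42), and that of GAPDH at 2.207 (next 0.562). On the mefloquine side, Hspb6 was low on mefloquine 1 at 9.246 (next 10.82).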

How the results depend on the processing

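None of the other genes of the chaperone list passed, by the brightest probe set, under any alternative run. The count of called probe sets of the 4 genes was also 0 throughout, from which nothing is read (rc_AA945704_at was not tested where all 16 arrays had to lie above the floor). Over all tested probe sets the count of 7 calls was 3 with all 16 arrays above the floor, 4 with a floor at the 10th or 40th percentile, with an offset or with quantile normalization, and 1 in replicates 6 to 8 alone, and 4 to 8 with 1 array left out. The floor set the size of the Dnajb1 difference by rc_AA945704_at, -0.65 in the main fit. It was -1.01 ± 0.57 (log2, SE) with the floor at the 10th percentile and -0.41 ± 0.27 at the 40th. Replicates 6 to 8 alone moved Dnaja1 to 0.0562 and Dnajb1 by rc_AA945704_at to 0.425. The cause of the shifts in replicates 6 to 8 was not tested.

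With 1 array left out, log2 differences ranged from 0.07 to 0.27 (rc_AI234604_s_at), -0.02 to 0.06 (M11942_s_at), -0.16 to -0.01 (X54793_at), -0.11 to -0.01 (rc_AA858640_s_at), -0.23 to -0.11 (U53922_at), -0.28 to -0.05 (rc_AA859648_at) and -0.82 to -0.43 (rc_AA945704_at). M11942_s_at turned in sign under 10 of 28 alternatives, quantile normalization and median scaling among them, and the others under 1 or 2 each. The 3′ over 5′ differences, mefloquine minus DMSO, were -0.40 for beta-actin (exact permutation p = 0.672) and -0.24 for GAPDH (exact permutation p = 0.494). With 1 array left out they ranged from -0.50 to 0.0797, the latter without DMSO control 3, and from -0.29 to -0.00. Same-numbered arrays correlated at 0.0569 to 0.593, above 0.1 in 7 of 8 pairs but not in every pair, and an array and its namesake were each other's best match in 2 of 8. All were positive, and numbers 5 to 8 held the highest, from 0.447 to 0.593. Whether the numbers mark pairs or runs is thus not settled, and the main fit did not take them as pairs. With the replicate block 8 probe sets were called, 0 of them chaperones, and the differences were those of the unblocked fit.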
